A study of Mus musculus with 8 samples.

Results

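The glycoprotein (GP) Ib-IX-V complex and its ligand von Willebrand factor (VWF) were examined as 5 genes, Gp1ba, Gp1bb, Gp9, Gp5 and Vwf, chosen by symbol from the 13387 genes of the count table. All 5 were in the table and passed edgeR's filter on low counts, as did 11722 genes in all. The libraries came from C57BL/6 mice of 8 to 12 weeks. MK-enriched cells, captured from flushed bone marrow with beads against CD41, were kept for 18 h alone (4 libraries) or with MSCs sorted as CD45-Ter119-CD31-CD51+CD140a+ bone marrow cells (4 libraries), and material from 5 wells was pooled for each library. The labels name the sequenced cells as MKs freed of platelets, whereas the methods of the study name platelets made in the cultures. The study gives mice as the unit of replication, but the labels do not tie a library to a mouse, so p-values measure the spread between these libraries.

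GPIbα, encoded by Gp1ba, is the subunit that binds VWF and lets platelets attach to a damaged vessel wall under flow. It is joined to GPIbβ (Gp1bb), and GPIX (Gp9) and GPV (Gp5) complete the receptor. Loss of GPIbα, GPIbβ or GPIX causes Bernard-Soulier syndrome, with large platelets and bleeding, whereas loss of GPV leaves the rest of the complex at the surface. MKs make all of these proteins and also make VWF, which they pack into the α-granules that pass to platelets. Endothelial cells are the other main source of VWF.

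The 4 subunits are encoded by separate genes, each with a promoter of its own, and the promoters are shown because the values of the 4 genes, all of them MK genes, are set against one another in the results. RefSeq sequence from 250 bases before to 50 bases after the gene start was matched for 4 of the 5 genes on GRCm38.p6. It is written 5′ to 3′ on the strand of the gene, and capitals mark each GATAA or its reverse complement TTATC. These letters are a form of the site bound by GATA factors, and other forms were not searched for.
Gp1ba (chr11:70638872-70639171, plus strand): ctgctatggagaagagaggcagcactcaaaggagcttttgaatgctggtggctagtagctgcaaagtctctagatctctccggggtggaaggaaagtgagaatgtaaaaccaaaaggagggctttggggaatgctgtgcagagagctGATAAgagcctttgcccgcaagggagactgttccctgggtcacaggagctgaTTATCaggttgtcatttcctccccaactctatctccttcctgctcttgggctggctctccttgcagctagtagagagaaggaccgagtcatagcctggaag
Gp1bb (chr16:18622354-18622653, minus strand): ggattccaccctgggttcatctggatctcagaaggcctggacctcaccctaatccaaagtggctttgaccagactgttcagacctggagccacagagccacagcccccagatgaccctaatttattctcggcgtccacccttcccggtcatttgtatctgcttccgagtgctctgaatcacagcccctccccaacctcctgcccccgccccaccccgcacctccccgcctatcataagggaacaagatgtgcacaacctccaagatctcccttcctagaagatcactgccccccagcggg
Gp9 (chr6:87777820-87778119, plus strand): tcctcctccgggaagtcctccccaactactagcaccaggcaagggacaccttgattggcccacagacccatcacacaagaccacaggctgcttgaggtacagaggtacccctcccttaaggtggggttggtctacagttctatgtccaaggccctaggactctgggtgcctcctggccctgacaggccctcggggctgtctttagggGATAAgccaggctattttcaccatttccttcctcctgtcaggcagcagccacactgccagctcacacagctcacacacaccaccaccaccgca
Gp5 (chr16:30310732-30311031, minus strand): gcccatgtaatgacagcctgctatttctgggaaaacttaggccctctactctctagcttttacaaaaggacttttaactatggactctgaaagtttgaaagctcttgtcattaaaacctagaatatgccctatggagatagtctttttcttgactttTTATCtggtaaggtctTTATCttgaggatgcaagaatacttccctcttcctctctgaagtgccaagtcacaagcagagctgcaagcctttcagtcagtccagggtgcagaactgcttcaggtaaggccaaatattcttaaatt
The Gp1ba window held 2 such matches, with first bases 103 and 51 bases before the start. The Gp5 window also held 2, at 93 and 77 bases before the start, and the Gp9 window held 1, at 43 bases before it. The Gp1bb window held 0 matches of this form, and whether it holds other forms was not examined. Of 32851 mouse promoters of this length, 25.4% held at least 1 match, and a match of these letters is a description of the sequence, not a bound site.

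Libraries held 4939874 to 12523616 counts, and 10735 to 13193 genes had at least 1 count. Replicate 3 of the cocultures had both the most counts and the fewest genes with a count. In the other 3 cocultures, 1951 genes had a mean between 10 and 20 CPM (counts relative to the total of their library). Of these, 34.2% (668 genes) had at most 3 counts in replicate 3. For each other coculture the class was formed anew from the remaining ones, leaving out replicate 3. In these classes 0 to 2 genes had at most 3 counts. Between 40 and 80 CPM, the share in replicate 3 was 7.63% of 2149 genes. The values of the 5 genes are therefore given with and without this library, as are the counts of called genes in the lists. The summed CPM of 15 MK and platelet markers ran from 2922 to 3526 in MKs alone and from 3051 to 5331 in the cocultures, and 1 of the 15 was called higher and 1 lower, or 2 and 2 without replicate 3. Without Thbs1, the marker that was called higher, the sum ran from 2783 to 3341 alone and from 2391 to 3014 in the cocultures. Markers of other cells moved with the cultures. All 9 neutrophil markers were called lower, with sums of 72717 to 86153 CPM alone and 3398 to 10635 CPM in coculture, and 4 of 7 B cell markers were called lower, also without replicate 3 (755 to 900 and 46.5 to 242 CPM). Of the macrophage markers, 8 of 9 tested were called higher (384 to 475 and 1651 to 1911 CPM), as were 6 of 8 MSC markers (15.1 to 22.9 and 881 to 4208 CPM), while 0 of 3 erythroid markers were called (23.5 to 35.6 and 18.0 to 48.8 CPM). Without replicate 3 all 10 tested macrophage and all 9 tested MSC markers were called higher, and 2 of 4 erythroid markers lower. In such bulk libraries, fewer MKs and less of an RNA per MK cannot be told apart, and the part of these other cells in the results was not tested.

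The comparison asks whether the receptor and its ligand differ between MKs kept with MSCs and MKs kept alone. Over all 8 libraries none of the 5 genes passed the test, which called a gene when its change was 2-fold or more, its p after Benjamini-Hochberg adjustment over all genes was 0.05 or less and its mean reached 1 CPM in either group. Gp1ba was lower in all 4 cocultures than in any library of MKs alone, a pattern found in 19.8% of all genes. It was called lower once replicate 3 was left out, where 15.4% of all genes were called lower. By contrast, Gp5 and Vwf overlapped between the cultures throughout. With edgeR, 0 of 5 genes had an unadjusted p under 0.05, and 0 were called by DESeq2, which called 26.6% of all genes in either direction. Weighting libraries by quality in limma voom called 1, Gp1ba, where 15.3% of all genes were called lower. With edgeR, of all 11722 genes, 7.31% were called lower and 13.2% called higher.

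Gp1ba, the VWF-binding subunit (ENSMUSG00000050675.7, GRCm38 chr11:70639122-70642036, plus strand), stood at 24.3, 51.9, 38.2 and 34.9 CPM in replicates 1 to 4 of MKs alone. In the cocultures it stood at 19.1, 18.0, 0.080 and 17.5 CPM. The groups did not overlap, and replicates 1, 2 and 4 of the cocultures lay close together below the lowest library of MKs alone. The means were 37.3 ± 11.4 CPM alone (SD, n = 4) and 13.7 ± 9.09 CPM in coculture (SD, n = 4). The difference of the means rested in part on replicate 3, where Gp1ba had 1 count against 91 to 192 in the other cocultures. The exact 95% Poisson interval of that count reached 0.44 CPM and covers counting error only. The log2 fold change over all 8 libraries was -1.55 (SE 0.95), with an adjusted p of 0.274 by edgeR's quasi-likelihood test. Without replicate 3 the coculture mean was 18.2 ± 0.833 CPM (SD, n = 3), the log2 fold change was -1.16 (SE 0.23) and Gp1ba was called lower, with an edgeR adjusted p of 0.000474. Without that library 15.4% of all genes were called lower and 20.6% higher. Groups that did not overlap, with the cocultures lower, were found in 19.8% of all genes, and Gp1ba was the 1 member of the 5 with that pattern.

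Gp1bb, the partner bound to GPIbα by a disulfide bond (ENSMUSG00000050761.4, GRCm38 chr16:18620317-18622403, minus strand), stood at 35.2, 51.0, 62.1 and 54.4 CPM in MKs alone. In the cocultures it stood at 24.8, 30.7, 59.6 and 45.8 CPM. The groups overlapped, and replicate 3 of the cocultures, where Gp1ba was nearly absent, had the highest Gp1bb of its group. The means were 50.7 ± 11.3 and 40.2 ± 15.6 CPM (SD, n = 4 each), and the log2 fold change was -0.24 (SE 0.40, edgeR adjusted p = 0.710). Without replicate 3 it was -0.73 (SE 0.23, edgeR adjusted p = 0.0119), which is past the p threshold but under the fold threshold.

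The Gp1bb value carries a limit of annotation. Its exons share 1902 bp with Sept5, a septin gene read on the same strand, and 867 bp with the gene model Gm49601. Of the 2086 31-base words in its transcripts, 91.5% also occur in those 2 genes, so the split of reads between them depends on the quantification. Sept5 itself had 25, 104, 110 and 93 counts in MKs alone. It had 54, 53, 1 and 30 counts in the cocultures, so that its own replicate 3 value was low where that of Gp1bb was high. With the Sept5 counts added to Gp1bb the log2 fold change was -0.38 (edgeR adjusted p = 0.479). For the other subunit genes 0 of these words occur in another gene, and for Vwf 1.31% do.

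Gp9, the small subunit needed for the complex to reach the cell surface (ENSMUSG00000030054.4, GRCm38 chr6:87778072-87779768, plus strand), was the lowest of the 5 genes in CPM. It stood at 5.67, 11.1, 11.9 and 12.9 CPM in MKs alone, and at 7.97, 12.8, 0.080 and 14.1 CPM in the cocultures. Apart from replicate 3, with 1 count against 73 to 90 in the other cocultures, the cocultures lay among or just above the MKs alone. The means were 10.4 ± 3.24 and 8.74 ± 6.34 CPM (SD, n = 4 each), with a log2 fold change of -0.37 (SE 0.96, edgeR adjusted p = 0.822). Without replicate 3 the coculture mean was 11.6 ± 3.22 CPM (SD, n = 3) and the log2 fold change was 0.0073 (edgeR adjusted p = 0.985). Gp1ba and Gp9 were thus both near 0 in the same library, and with that library left out 1 was called lower and the other had a fold change near 0.

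Gp5, the thrombin-cleaved subunit that is not required for the rest to be displayed (ENSMUSG00000047953.7, GRCm38 chr16:30307685-30310779, minus strand), stood at 49.8, 86.5, 84.5 and 68.3 CPM in MKs alone. In the cocultures it stood at 55.8, 63.1, 89.0 and 83.6 CPM. The groups covered nearly the same range, and replicate 3 of the cocultures was the highest library of all 8. The means were 72.3 ± 17.1 and 72.9 ± 15.9 CPM (SD, n = 4 each), and the log2 fold change was 0.077 (SE 0.30, edgeR adjusted p = 0.885). Without replicate 3 it was -0.24 (edgeR adjusted p = 0.324), so the sign of the Gp5 value rests on that library.

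Vwf, the ligand (ENSMUSG00000001930.17, GRCm38 chr6:125546774-125686679, plus strand), stood at 50.2, 75.1, 87.0 and 65.3 CPM in MKs alone. In the cocultures it stood at 44.2, 49.8, 27.4 and 84.9 CPM. The groups overlapped, since replicate 4 of the cocultures lay near the highest library of MKs alone, and replicate 3 was the lowest of all 8. Unlike Gp1ba and Gp9, Vwf kept 343 counts in replicate 3. The means were 69.4 ± 15.6 and 51.6 ± 24.2 CPM (SD, n = 4 each), and the log2 fold change was -0.47 (SE 0.29, edgeR adjusted p = 0.290), or -0.36 without replicate 3 (edgeR adjusted p = 0.180).

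**Figure D1:**
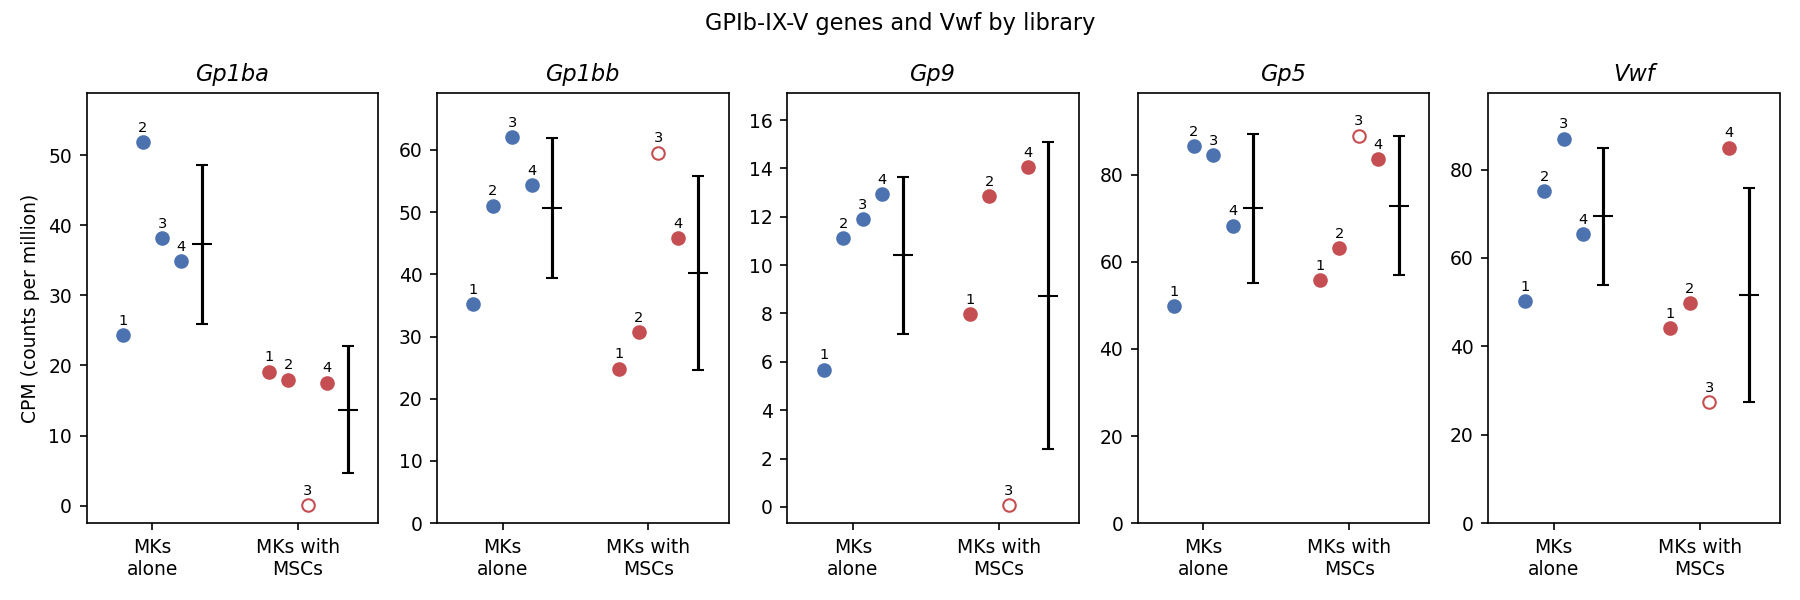
CPM of each gene in each library, for MKs alone (blue) and MKs with MSCs (red), with the replicate number above each point; the horizontal mark and bar give the mean and SD of the 4 libraries. Gp1ba lay at or below 19.1 CPM in the cocultures and at or above 24.3 CPM in MKs alone, while the other 4 genes overlapped; the open point is replicate 3 of the cocultures, at 0.080 CPM for Gp1ba and Gp9.

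**Figure D2:**
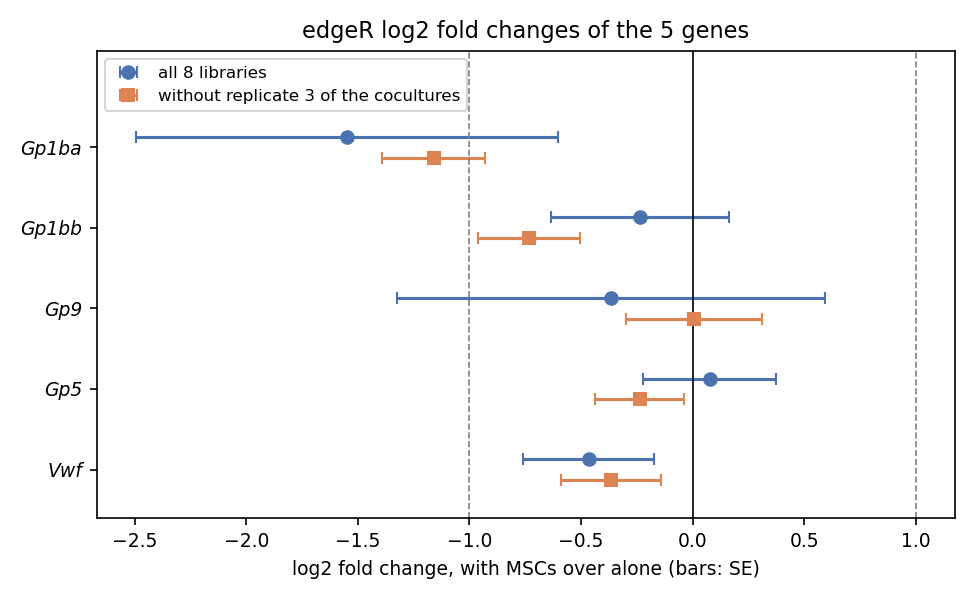
edgeR log2 fold change (x axis) of MKs with MSCs over MKs alone with its SE, for all 8 libraries (blue circles) and without replicate 3 of the cocultures (orange squares); dashed lines mark a fold change of 2. The SE of Gp1ba went from 0.95 to 0.23 when that library was left out, and its fold change went from -1.55 to -1.16.

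Because Vwf is also an endothelial gene, endothelial markers were read in the same libraries. Of 13 such markers 9 were in the table and 6 passed the filter on low counts. Cdh5, the endothelial cadherin, ran from 0 to 0.915 CPM in MKs alone and from 0 to 1.996 CPM in the cocultures, against 27.4 to 87.0 CPM for Vwf, and Robo4, Cldn5, Sox17 and Sox18 were not among the genes of the table. Other markers of the list were present, and 5 of the 6 tested had negative log2 fold changes, with a median of -1.44. Tek had means of 30.3 CPM alone and 9.40 in coculture, Tie1 of 18.8 and 8.25, Esam of 18.0 and 6.59, Flt1 of 9.29 and 4.82 and Kdr of 7.87 and 2.89. The summed markers ran from 79.4 to 97.3 CPM alone and from 10.5 to 54.2 CPM in coculture, and 1 of 6, Tek, was called lower. Without replicate 3 the coculture sums ran from 35.4 to 54.2 CPM, and 3 of 6 were called lower (Tek, Kdr and Esam), with a median of -1.06. Tek, an angiopoietin receptor, and Esam are also known from hematopoietic stem cells and MKs. The part of endothelial cells in the Vwf values was not tested.

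The order of the genes was read from CPM per kilobase of exon, since transcripts differ in length. The Gp1bb level carries the limit of annotation given above. In MKs alone Gp5 stood highest at 32.9 ± 7.76 CPM per kb, followed by Gp1bb at 24.3 ± 5.41, Gp1ba at 13.7 ± 4.19, Gp9 at 11.8 ± 3.68 and Vwf at 4.32 ± 0.97 (SD, n = 4 each). The neighbours Gp5 and Gp1bb lay within the sum of their SDs, as did Gp1ba and Gp9, whereas Gp1bb and Gp1ba, and Gp9 and Vwf, lay farther apart. In coculture the order became Gp5 at 33.2 ± 7.24 CPM per kb, Gp1bb at 19.3 ± 7.49, Gp9 at 9.92 ± 7.20, Gp1ba at 5.03 ± 3.35 and Vwf at 3.21 ± 1.51 (SD, n = 4 each). There Gp1ba stood below Gp9, with every pair of neighbours within the sum of its SDs. Without replicate 3 the order was Gp5 at 30.7 ± 6.55 CPM per kb, Gp1bb at 16.2 ± 5.19, Gp9 at 13.2 ± 3.65, Gp1ba at 6.70 ± 0.307 and Vwf at 3.71 ± 1.37 (SD, n = 3 each), and of these neighbours only Gp1bb and Gp9 lay within the sum of their SDs. Vwf has 11 annotated transcripts, and with its longest transcript as the length it stood at 7.86 ± 1.76 CPM per kb alone and 5.84 ± 2.74 in coculture. It was still the lowest gene alone, but in coculture Gp1ba then stood below it, at 5.05 ± 3.36 CPM per kb.

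The make-up of the receptor was then taken within each library, as the share of each subunit in the summed counts per kb of the 4 genes, which does not depend on how libraries are scaled to one another. Gp1ba made up 16.3%, 19.98%, 14.7% and 15.2% of the sum in MKs alone, and 13.2%, 10.2%, 0.042% and 7.82% in the cocultures. Gp5 made up 41.3%, 41.2%, 40.2% and 36.7% alone, and 47.6%, 44.4%, 58.6% and 46.2% in the cocultures. For both genes the groups did not overlap, with Gp1ba taking a smaller and Gp5 a larger share in every coculture. The mean Gp1ba share was 16.5% ± 2.40 alone and 7.82% ± 5.63 in coculture (SD, n = 4 each), and 10.4% ± 2.69 (SD, n = 3) in coculture without replicate 3. The mean Gp5 share was 39.8% ± 2.15 and 49.2% ± 6.38 (SD, n = 4 each), and 46.1% ± 1.58 (SD, n = 3) without replicate 3. In a two-sided exact permutation test over libraries each had p = 0.0286, the smallest that 4 against 4 can give, and an adjusted p of 0.0571 over the 4 shares, which does not pass 0.05. The shares sum to the whole, so they are not independent of one another. All 4 also rest on the Gp1bb count, whose split from Sept5 depends on the quantification.

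The shares of the other subunits overlapped between the cultures. Gp1bb made up 29.5% ± 2.64 of the sum alone and 28.2% ± 8.91 in coculture (SD, n = 4 each; exact permutation p = 0.857, adjusted p = 0.971). Gp9 made up 14.1% ± 2.38 alone and 14.8% ± 10.02 in coculture (SD, n = 4 each; exact permutation p = 0.971, adjusted p = 0.971). Without replicate 3 the coculture share of Gp1bb was 23.9% ± 2.40 and that of Gp9 was 19.6% ± 2.82 (SD, n = 3 each), with differences from MKs alone of -5.65 and 5.54 percentage points (adjusted p = 0.0857 for each by the same exact permutation test). Replicate 3 was the highest coculture for Gp1bb, at 41.3%, and the lowest for Gp9, at 0.131%. In the other 3 cocultures Gp9 stood at 17.0%, 22.6% and 19.4% of the sum, above Gp1ba in each, while in MKs alone Gp9 was below Gp1ba in 3 of 4 libraries and above it in replicate 4.

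**Figure D3:**
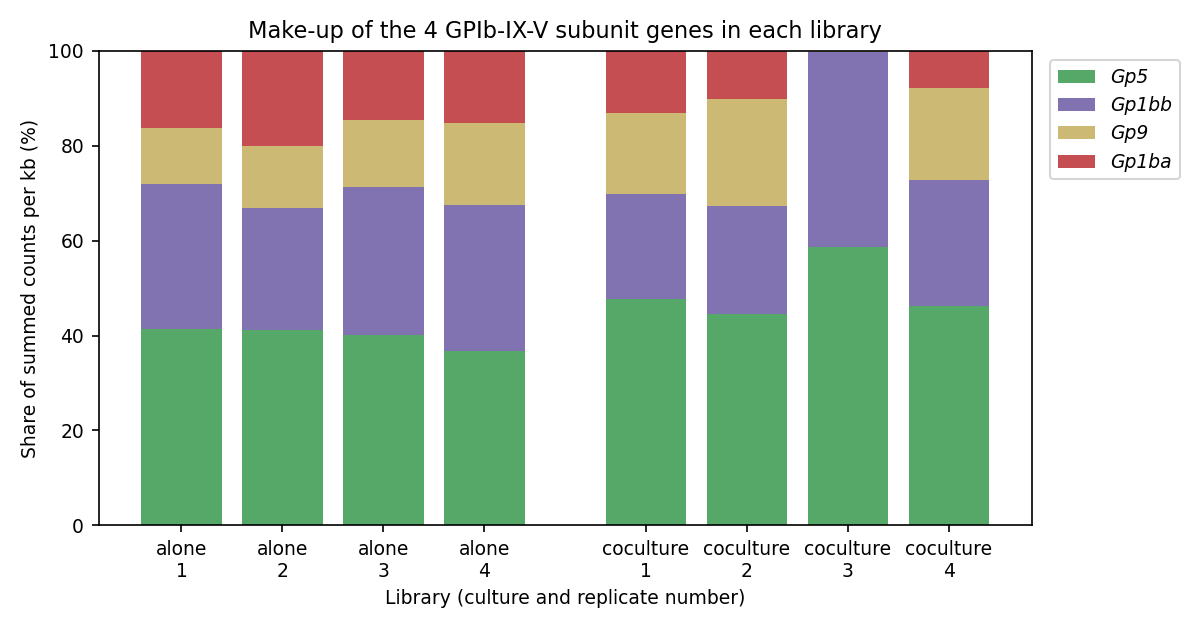
Share (y axis, percent) of each subunit gene in the summed counts per kb of Gp5, Gp1bb, Gp9 and Gp1ba, 1 bar per library. The Gp1ba part at the top of each bar spans 14.7% to 19.98% in MKs alone and 0.042% to 13.2% in the cocultures, and in replicate 3 of the cocultures Gp5 and Gp1bb fill nearly the whole bar.

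The summed receptor genes stood at 82.7 ± 19.2 CPM per kb alone and 67.4 ± 11.997 in coculture (SD, n = 4 each), with overlapping ranges of 54.9 to 95.8 and 53.4 to 82.4. The log2 ratio of Vwf to this sum was -4.22 ± 0.13 alone and -4.44 ± 0.57 in coculture (SD, n = 4 each; two-sided exact permutation p = 0.686). Replicate 3 of the cocultures had the lowest ratio at -5.26, and without it the coculture mean was -4.17 ± 0.21 (SD, n = 3). Set against Gp1ba alone, the subunit that binds VWF, the log2 ratio was -1.62 ± 0.28 in MKs alone and 0.28 ± 2.39 in coculture (SD, n = 4 each). The difference was 1.90 (two-sided exact permutation p = 0.0286, not adjusted and the smallest that 4 against 4 can give). In replicate 3 of the cocultures this ratio was 3.80. Its 1 count of Gp1ba was 0.029 CPM per kb, below the 0.1 added to each term, so this ratio depends on the added value. Without that library the coculture mean was -0.89 ± 0.54 (SD, n = 3), a difference of 0.73 from MKs alone.

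The genes whose patterns were most like each of the 5 over the 8 libraries were found by the smallest root mean squared difference of centred log2(CPM + 1) values, among 9001 genes with a mean of at least 10 CPM. Those nearest to Gp1ba were Ndrg2 (0.16), Parp8 (0.19) and Phf8 (0.19), which had 0, 5 and 5 counts in replicate 3 of the cocultures. Nearest to Gp9 were Wdr24 (0.14), Fam189b (0.14) and Mau2 (0.15), with 5, 2 and 19 counts there. Both sets of neighbours thus share low counts in that library. Nearest to Gp1bb were Lat (0.12), Aldh2 (0.12) and Stk40 (0.13), nearest to Gp5 were Arhgef2 (0.062), Nelfb (0.079) and Trmt112 (0.087), and nearest to Vwf were Zfyve27 (0.076), Zc3h10 (0.12) and Flcn (0.15). Among the members, Gp1bb and Gp5 were the closest pair at 0.27, against 0.74 for Gp1ba and Gp9 and 1.76 for Gp1ba and Gp1bb. Still, Gp5 ranked only 131 of 9001 genes by likeness to Gp1bb.

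The genes around the receptor and its ligand were read from lists of 72 further genes, of which 61 were tested. In all, 9 were called higher (14.8%) and 11 lower (18.0%), against 13.2% and 7.31% of all genes. Without replicate 3, 11 of 63 tested were called higher (17.5%) and 15 lower (23.8%), against 20.6% and 15.4% of all genes. List genes named as called in either direction were called without replicate 3 as well, except where stated. Among genes for the processing and storage of VWF, 0 of 6 tested were called, with a median log2 fold change of 0.47 against 0.034 over all genes. Furin, which cleaves the VWF propeptide and was the most abundant of this list, had 0.64 (SE 0.27, edgeR adjusted p = 0.121). Nbeal2, required for α-granules and named after its values were seen, had -1.41 (edgeR adjusted p = 0.162) over all 8 libraries and was called lower at -1.08 (edgeR adjusted p = 0.00565) without replicate 3. Selp, the α-granule membrane protein P-selectin and also a counter-receptor of GPIbα, was named after its values were seen too. It had 0.83 (edgeR adjusted p = 0.530) and was called higher at 1.22 (edgeR adjusted p = 0.000212) without replicate 3.

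Of 4 tested genes for other ligands and counter-receptors of GPIbα, 1 was called higher and 2 lower, or 3 and 2 of 5 without replicate 3. Thbs1, the secreted protein thrombospondin-1, was higher by 3.58 on the log2 scale (SE 0.36, edgeR adjusted p = 0.000201), from 164 ± 19.7 to 2077 ± 959 CPM (SD, n = 4 each). In replicate 3 of the cocultures, where the summed MSC markers were lowest at 881 CPM, Thbs1 stood at 660 CPM. The other cocultures held 2317 to 2680 CPM of Thbs1, and the part of MSCs in this value was not tested. Itgam and Itgb2, the chains of the leukocyte integrin Mac-1, had log2 fold changes of -1.97 (edgeR adjusted p = 5.7e-05) and -1.28 (edgeR adjusted p = 0.00283), in the same libraries in which all neutrophil markers were lower. Of 5 tested genes for other VWF receptors and for receptors that clear VWF, 3 were called higher and 0 lower, with and without replicate 3. These were Lrp1 at 4.91, Stab1 at 4.46 and Itgav at 2.64 on the log2 scale (edgeR adjusted p = 2.55e-05, 0.000439 and 0.00286). Lrp1 and Stab1 are scavenger receptors known from macrophages, whose markers were also higher. Itgav stood at 66.1 CPM in replicate 3 of the cocultures, against 302 to 370 CPM in the others. MSC markers were higher too, and the part of MSCs or macrophages in these values was not tested. Itgb3, a chain of the platelet integrin αIIbβ3 that binds VWF and fibrinogen, was the most abundant of this list and had -1.20 (SE 0.48, edgeR adjusted p = 0.110), or -0.88 without replicate 3 (edgeR adjusted p = 0.000345, under the fold threshold).

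GPIbα is shed from the surface by ADAM17, and among 4 tested genes for shedding 1 was called higher and 0 lower, or 2 and 0 of 5 without replicate 3. The called gene was Timp3, an inhibitor of such metalloproteinases, at 2.68 on the log2 scale (SE 0.50, edgeR adjusted p = 0.00523), and the list's median was -0.24. Timp3 ran from 96.4 to 161 CPM alone and stood at 158 CPM in replicate 3 of the cocultures, so the groups overlapped. The other cocultures held 883 to 1290 CPM, and the part of MSCs in this value was not tested. Of 18 genes for cytoplasmic partners and signalling, 4 were called higher and 2 lower, with a median of 0.093, and without replicate 3 the counts were 3 and 3. Traf4 (2.98, edgeR adjusted p = 0.00224) was among those called higher. So was Calm3 (1.67, edgeR adjusted p = 0.0499), which stood at 297 CPM in replicate 3 against a mean of 98.0 in the other cocultures and was not called without it (0.78, edgeR adjusted p = 0.00221). Lyn, a Src family kinase, was called lower (-1.34, edgeR adjusted p = 0.00492). That is a value of RNA in bulk libraries, in which neutrophil and B cell markers were lower too. The study reports more total LYN protein and more phosphorylated LYN by flow cytometry in platelets of the cocultures. The part of other cells in the Lyn value was not tested. Calm2, a calmodulin gene and the most abundant of the list, had -0.35 (edgeR adjusted p = 0.320). Of 10 genes for glycosylation and desialylation, which shape the sugars on GPIbα, 0 were called higher and 1 lower, with a median of -0.30. That gene was C1galt1, which builds the core of O-linked sugars, at -1.03 (SE 0.23, edgeR adjusted p = 0.0134). Without replicate 3 it was just under the fold threshold at -0.99, and Neu3, a sialidase, was the 1 gene of the list called lower (-1.01, edgeR adjusted p = 0.0247). Neu3 was named after its values were seen, and over all 8 libraries it had -1.22 (edgeR adjusted p = 0.168).

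Of 15 MK transcription factor genes, 6 were called lower and 0 higher, where 7.31% of all genes were called lower, and the median log2 fold change was -0.92 against 0.034 over all genes. Without replicate 3, 8 of 15 were called lower, where 15.4% of all genes were. The largest falls were those of Nfe2 (-2.72, edgeR adjusted p = 0.0234), Ets1 (-1.95, edgeR adjusted p = 0.00181) and Fli1 (-1.78, edgeR adjusted p = 0.00139). Nfe2 drives late MK maturation, and Fli1 is an Ets factor of the MK lineage. Ets1 is also abundant in lymphocytes, whose B cell markers were lower too. Neutrophil markers were lower as well, and the part of other cells in any of these falls was not tested.

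**Figure D4:**
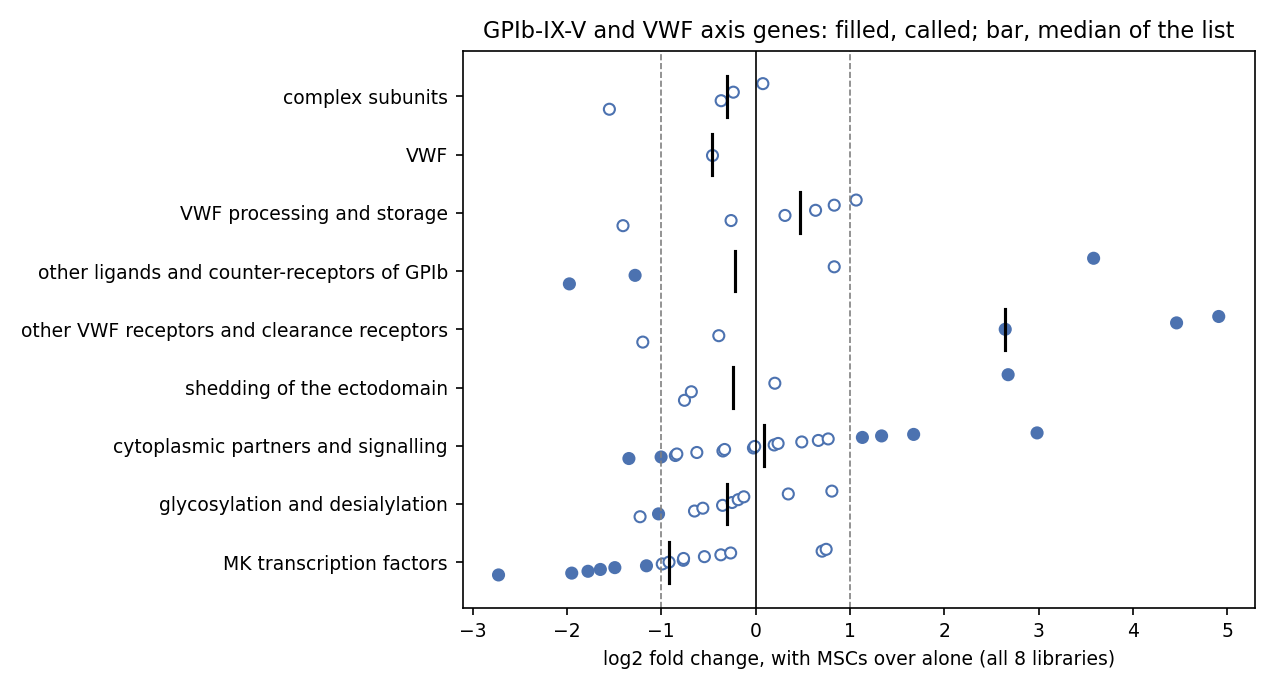
log2 fold change (x axis) of every tested gene of the lists around the receptor and VWF, over all 8 libraries; filled points were called, dashed lines mark a fold change of 2, and the black bar is the median of the list. The 4 subunits and Vwf are open points between -1.55 and 0.077, the receptors that clear VWF reach 4.91, and 6 of the 15 transcription factors are filled on the left.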

How the data were processed

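The authors deposited 1 table of raw counts per gene as whole numbers, without normalization. By the methods of the study, SMART-Seq HT paired-end reads were filtered with fastp and quantified with kallisto on the mm10 transcriptome. Versions, and how transcripts were summed to genes, rounded or assigned by strand, are not given in the sources used here.

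Groups and replicate numbers came from the labels, and the 5 genes were matched by symbol. The members and lists were chosen with earlier results of these data known. All genes were fitted in R 4.3.3 by the quasi-likelihood F test of edgeR 4.0.16, with robust estimation, TMM scaling, the filterByExpr filter and no covariate (since the batches in the DESeq2 design of the study are not named). SE was taken as the log2 fold change over the root of F. Shares and ratios were tested by exact permutation over libraries in Python 3.11, with 0.1 added to each term of the Vwf ratio, and likeness used log2(CPM + 1). A floor of 3 counts was 0.24 to 0.61 CPM. Reads carry no molecular identifiers, so intervals and floors cover counting error only. Gene models were those of GENCODE vM21 (GRCm38, to which mm10 corresponds), and promoters from RefSeq.

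The genes named were the 5 members, the 3 nearest genes to each, genes that overlap a member, and from each list up to 3 called genes by size of change and the most abundant gene. Cell type markers are named where a result turns on them. Alternatives were DESeq2 1.42.0, limma 3.58.1 (voom with quality weights), RLE or library-size scaling, scaling to the MK and platelet markers, no filter, the replicate number as a block, other lengths and pseudocounts, and each library left out in turn.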

Additional observations from a re-analysis of the deposited data

Results flagged for a closer look

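In groups of 4 libraries, a value was marked when its gap to the nearest other, over the range of the group, passed Dixon's 95% critical value. Of 22 groups examined 2 had such a value, where chance gives about 1.1. Gp1ba in replicate 3 of the cocultures, at 0.11 on the log2(CPM + 1) scale, stood apart from the other 3 cocultures. The Gp1bb share of the receptor sum in replicate 2 of MKs alone, at 25.6%, lay below the other 3 libraries of its group. Neither was tested further.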

How the results depend on the processing

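Of the values recomputed under other settings, 199 kept their direction and side of the threshold, 16 changed sign, 3 newly passed the threshold and 4 were counts that moved by over 1.5 times. The voom quality weight of replicate 3 of the cocultures was 0.018. With voom weights, without that library, or with the replicate block and both libraries numbered 3 left out (chosen after seeing the data), 1 member was called lower, Gp1ba, at -1.24, -1.16 and -1.12 on the log2 scale, and 0 were called under every other setting. Voom also gave Gp1bb -0.86 (adjusted p = 0.00129) and Vwf -0.51 (adjusted p = 0.0296), both under the fold threshold. The summed markers are dominated by Thbs1, 21.6% to 51.2% of them in the cocultures and 4.74% to 5.25% alone. Scaling to all 15 moved the median of all genes to -0.47 and called 21 list genes lower in place of 11, and scaling to the other 14 (chosen after seeing the data) moved it to 0.27. With that scaling and without replicate 3, Gp1ba was at -0.85 (adjusted p = 0.0130), under the fold threshold. Gp5 turned negative with marker scaling (-0.41), with voom weights (-0.33), without replicate 1 of MKs alone (-0.049), without replicate 3 of the cocultures (-0.24) and with the block and both libraries numbered 3 left out (-0.16). Gp9 turned positive without replicate 3 of the cocultures (0.0073), with that and markers other than Thbs1 (0.31), and with the block and both libraries numbered 3 left out (0.11). The Vwf ratio turned positive against Gp1ba alone (1.90, exact permutation p = 0.0286) and without replicate 3 of the cocultures (0.052). In percentage points, the Gp9 share turned negative without replicate 1 of MKs alone (-0.13) and without replicates 1, 2 and 4 of the cocultures (-0.070, -1.94 and -0.87), and the Gp1bb share turned positive without replicates 1 and 2 of the cocultures (0.68 and 0.52). With each library left out in turn, members called lower ran from 0 to 1, the log2 fold change from -1.78 to -1.16 for Gp1ba, -0.73 to -0.031 for Gp1bb, -0.65 to 0.0073 for Gp9, -0.24 to 0.23 for Gp5 and -0.71 to -0.36 for Vwf. List genes called lower ran from 8 to 15 and higher from 8 to 11, the share differences from -10.5 to -6.11 for Gp1ba, -5.65 to 0.68 for Gp1bb, -1.94 to 5.54 for Gp9 and 6.22 to 10.9 for Gp5, and the Vwf ratio difference from -0.39 to 0.052. The causes of these changes were not tested. Libraries with the same replicate number shared no stated origin, so the numbers were not taken as pairs in the main fit. The correlations of their deviations were 0.38, 0.025, 0.15 and 0.033, against -0.29 to 0.096 between libraries of different numbers. A shared origin of libraries with the same number was not tested. The replicate block in edgeR gave -2.05 for Gp1ba (adjusted p = 0.349), -0.38 for Gp1bb, -0.80 for Gp9, 0.027 for Gp5 and -0.51 for Vwf, with 0 called. An exact sign-flip permutation test on 4 differences cannot go below p = 0.125.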
